A study of Homo sapiens with 4 samples.

Results

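The LIN28, IGF2BP and HMGA fetal program was followed here as 9 genes listed by name, LIN28A, LIN28B, TRIM71, IGF2BP1, IGF2BP2, IGF2BP3, HMGA1, HMGA2 and ARID3B, in day 14 human cardiomyocyte cultures. All 9 were found in the gene table, each in 1 row, and all 9 reached the mean of 1 FPKM required for testing, as did 12398 genes in all. FPKM are sequenced fragments scaled to transcript length and to the mapped total of the library, so they can be compared between genes as levels per length. The cells of both groups were RUES2, an established line of human embryonic stem cells, and were induced by activin A (100 ng/ml) and BMP4 (5 ng/ml), named A100/B5. CPC cultures, 2 libraries, went through cardiac progenitor cells, and the study's methods add the tankyrase inhibitor XAV-939 on day 3 of that protocol in a subset of experiments. ECsXAV cultures, also 2 libraries, were moved to medium with VEGF on day 2, became hemogenic endothelial cells, and were given 2 µM XAV-939 from day 5. Both groups are from 1 cell line and from unsorted cultures, and their sample names carry different prefixes, so the group and any difference between the 2 sets of cultures cannot be told apart.

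LIN28A and LIN28B are RNA-binding proteins that bind let-7 precursors and block their maturation, and let-7 in turn represses LIN28 transcripts. TRIM71 is a TRIM-NHL protein of early embryos and a classic let-7 target. The IGF2BP proteins bind messenger RNAs and affect their stability, transport and translation, the HMGA proteins are architectural chromatin proteins that bind AT-rich DNA, and ARID3B is a DNA-binding protein with an AT-rich interaction domain. These genes are active in embryonic tissues, the heart included, and most of them decline as tissues mature.

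The let-7 family shares 1 seed, bases 2 to 8 of the mature microRNA, through which it recognizes its targets. All 9 mature sequences looked for in RefSeq (GRCh38.p14) were matched, and 4 of them are shown with the seed in capitals because the sites that follow are complements of it.
let-7a-5p: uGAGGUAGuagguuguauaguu
let-7d-5p: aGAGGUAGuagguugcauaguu
let-7g-5p: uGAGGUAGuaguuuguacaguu
miR-98-5p: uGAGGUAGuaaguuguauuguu
The 3′ UTR of every one of the 9 genes held at least 1 copy of the complement CTACCTC, searched on the transcript strand of MANE Select transcripts (GENCODE 44 on GRCh37). Of all 18645 such UTRs, 9.9% held it. These genes are textbook let-7 targets, so the count describes how they came to be listed. Length matters as well. Of UTRs within 20% of the length of a gene's own UTR, the share with a copy ran from 8.5% for HMGA1 to 32.6% for IGF2BP1.

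For each gene, 1 site is shown with the match in capitals, the first followed by adenosine or, where there is none, the first.
LIN28A, chr1:26753832-26753861, plus strand: ttggagtgcacagcctattgaaCTACCTCa
LIN28B, chr6:105526680-105526709, plus strand: ttcctttacccggttgcaaagtCTACCTCa
TRIM71, chr3:32933453-32933482, plus strand: aaagtacaacattgcttaagtcCTACCTCa
IGF2BP1, chr17:47128416-47128445, plus strand: gcaatgctgtgtgcgaagtaaaCTACCTCa
IGF2BP2, chr3:185362008-185362037, minus strand: cgagaaaaacacacagaagaagCTACCTCa
IGF2BP3, chr7:23351414-23351443, minus strand: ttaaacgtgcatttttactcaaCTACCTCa
HMGA1, chr6:34213599-34213628, plus strand: ccatttttcctctgttcacaaaCTACCTCt
HMGA2, chr12:66357073-66357100, plus strand: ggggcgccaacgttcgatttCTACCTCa
ARID3B, chr15:74890435-74890464, plus strand: atgtttatatttcaataaacctCTACCTCt
TRIM71 held 6 copies, LIN28B, IGF2BP1 and HMGA2 held 4 each, and the other 5 genes held 1 each. Of the 23 copies, 13 were followed by adenosine, which lengthens the usual target match by 1 base, and they lay in 7 of the 9 genes. The first HMGA2 copy began 21 bases after the stop codon, and the single ARID3B copy began 2342 bases into a UTR of 2357 bases. A match describes the sequence and does not show that let-7 acted there in these cells.

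**Figure D1:**
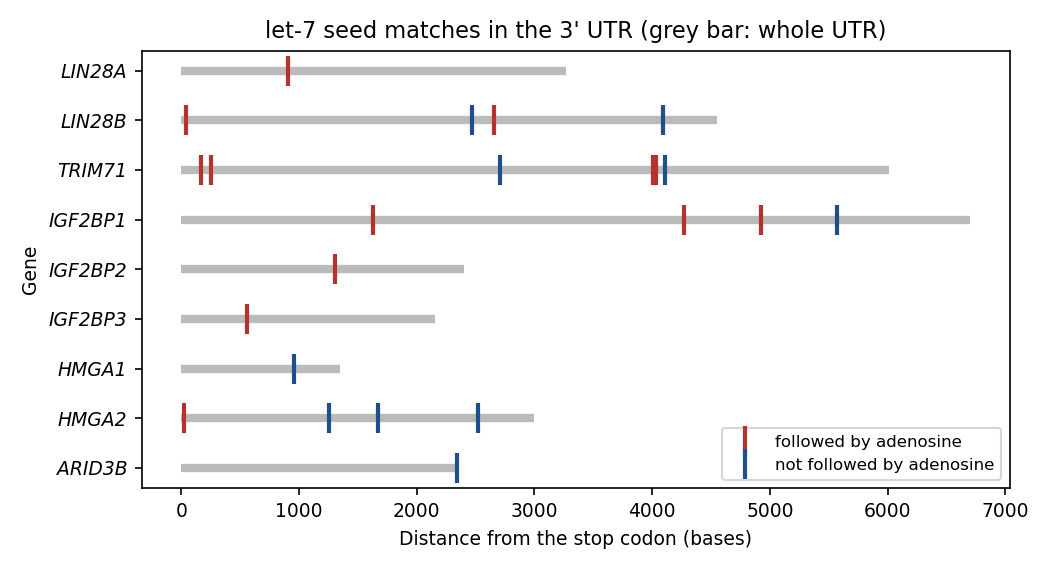
Positions of the seed match in the 3′ UTR of each gene, with the distance from the stop codon in bases on the x axis, the whole UTR as a grey bar, and red or blue ticks for copies followed or not followed by adenosine. TRIM71 has 6 copies in 6013 bases, HMGA2 has 4 in 2999 bases and HMGA1 has 1 in 1347 bases.

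All 9 genes were expressed at day 14, at levels from about 2 FPKM for LIN28A to over 60 FPKM for HMGA1. HMGA2, at 1.85 times the mean FPKM in ECsXAV, was the gene with the largest difference between the groups. None of the 9 passed the criterion used for differential expression, a Benjamini-Hochberg adjusted p below 0.05 in limma together with more than a 2-fold change, beside 2.15% of all tested genes. Over all tested genes, 0.71% passed it higher in CPC and 1.44% passed it higher in ECsXAV. The adjusted p alone was under 0.05 for 2.89% of tested genes and for none of the 9. At an unadjusted p under 0.05 there was 1 of the 9, HMGA2, beside 18.2% of tested genes. With 2 libraries against 2, an exact two-sided permutation test cannot go below p = 0.33, so the variance was shared over genes. The count over the whole table was 266 genes, and it was 159 without ECsXAV replicate 1, 127 without ECsXAV replicate 2, 59 without CPC replicate 1 and 85 without CPC replicate 2. The direction turned as well: 88 of the 266 were higher in CPC, whereas most calls were higher in CPC when 1 CPC library was left out. With all 4 libraries and no filter on low FPKM, 12 were higher in CPC and 8 higher in ECsXAV. The excess of genes higher in ECsXAV thus depended on the setting, and the cause was not tested.

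**Figure D2:**
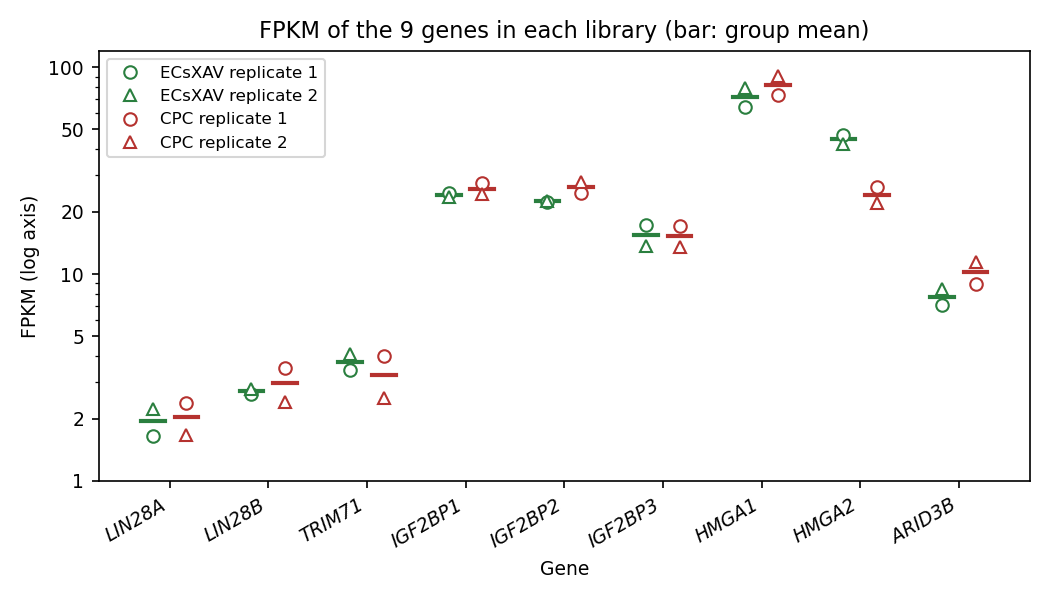
FPKM on a log axis for each gene and library, with green symbols for ECsXAV, red symbols for CPC, circles for replicate 1, triangles for replicate 2 and a bar at each group mean. HMGA2 is the gene with the widest gap between the groups, 42.6 to 47.2 FPKM in ECsXAV against 22.1 to 26.4 FPKM in CPC.

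HMGA2 (chr12:66218240-66360071, plus strand, GRCh37) encodes the HMGA protein most closely tied to embryonic growth. Its FPKM were 47.2 and 42.6 in ECsXAV replicates 1 and 2, and 26.4 and 22.1 in CPC replicates 1 and 2. Both ECsXAV libraries were above both CPC libraries. The group means were 44.9 ± 3.25 FPKM (SD, n = 2) in ECsXAV and 24.2 ± 3.07 FPKM (SD, n = 2) in CPC. On the log2(FPKM + 1) scale the difference, CPC minus ECsXAV, was -0.87 (95% interval -1.22 to -0.52), with an adjusted p of 0.0512 in limma. That p lies beside the threshold and was 0.0463 with a pseudocount of 0.1, where the fold change was still below 2.

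Nearly all HMGA2 signal came from 1 of the 2 transcripts in the isoform table. NM_003483 took 99.8% and 99.5% of the gene's summed FPKM in ECsXAV and 99.8% and 99.7% in CPC. The antisense pseudogene RPSAP52, which overlaps HMGA2, was at 0.0479 to 0.0956 FPKM. The study made its separate read counts by strand, and whether the FPKM were made with strand is not given in the sources used here.

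HMGA1 (chr6:34204650-34214008, plus strand) encodes the more broadly expressed HMGA protein and was the most highly expressed of the 9 genes in every library. Its FPKM were 64.1 and 79.1 in ECsXAV and 73.3 and 91.1 in CPC. The groups overlapped, and the difference was 0.20 (95% interval -0.25 to 0.64; limma adjusted p = 0.612). HMGA2 made up 42.4% and 35% of the summed HMGA1 and HMGA2 FPKM in ECsXAV, and 26.5% and 19.5% in CPC. Both ECsXAV shares were thus above both CPC shares, while the summed FPKM of the pair, at 111 and 122 in ECsXAV and 99.8 and 113 in CPC, overlapped.

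The HMGA1 transcripts were assigned less evenly between libraries than the gene was. NM_145899 took 53.0% and 52.8% of the gene's FPKM in ECsXAV, and 39.8% and 52.4% in CPC. NM_145903 was at 0.0205 and 0.415 FPKM in ECsXAV and at 0.0102 and 9.52 FPKM in CPC, so that 1 CPC library alone carried it. HMGA1 also has near-identical processed copies in the genome. The study left reads with several alignments out of its separate read counts. How such reads were handled for the FPKM is not given in the sources used here.

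The 3 IGF2BP genes were all expressed at well above the LIN28 genes. IGF2BP1 (chr17:47074747-47133507, plus strand), which binds the MYC and ACTB messengers among others, was at 24.6 and 23.6 FPKM in ECsXAV and 27.4 and 24.3 FPKM in CPC. The ranges overlapped, with a difference of 0.09 (95% interval -0.20 to 0.39; limma adjusted p = 0.723). IGF2BP2 (chr3:185360918-185542830, minus strand), the family member that stays on in adult tissues, was at 22.4 and 22.6 FPKM in ECsXAV and 24.7 and 27.7 FPKM in CPC. Here both CPC libraries were above both ECsXAV libraries, by 0.21 (95% interval -0.08 to 0.49; limma adjusted p = 0.418), an interval that includes 0. IGF2BP3 (chr7:23349828-23510110, minus strand), an oncofetal member, was at 17.3 and 13.7 FPKM in ECsXAV and 17.0 and 13.5 FPKM in CPC. The spread between its replicates was larger than the distance between its groups, whose difference was -0.03 (95% interval -0.48 to 0.42; limma adjusted p = 0.954).

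The balance within the family was alike in the 4 libraries. IGF2BP1 made up 37.2% to 39.7% of the summed FPKM of the 3 genes, IGF2BP2 34.8% to 42.3% and IGF2BP3 20.6% to 26.9%. Of the 2 IGF2BP1 transcripts in the isoform table, NM_006546 took 83.0% and 91.1% of the gene in ECsXAV and 95.2% and 90.1% in CPC, with ECsXAV replicate 1 the lowest. MALSU1 overlaps IGF2BP3 on the opposite strand and was at 25.4 to 35.3 FPKM, above IGF2BP3 itself. If the FPKM, unlike the study's read counts, were made without strand, reads from the overlap may have been counted for either gene.

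LIN28A and LIN28B were the lowest of the 9 genes. LIN28A (chr1:26737308-26756219, plus strand) was at 1.65 and 2.22 FPKM in ECsXAV and 2.39 and 1.66 FPKM in CPC. Its groups overlapped almost fully, with a difference of 0.04 (95% interval -0.46 to 0.54; limma adjusted p = 0.936). LIN28B (chr6:105384491-105531207, plus strand) was at 2.64 and 2.79 FPKM in ECsXAV and 3.53 and 2.41 FPKM in CPC. The 2 CPC libraries lay on either side of the ECsXAV libraries, and the difference was 0.08 (95% interval -0.38 to 0.55; limma adjusted p = 0.858). LIN28A made up 38.4% to 44.4% of the summed FPKM of the pair, so LIN28B was the higher of the pair in all 4 libraries.

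TRIM71 (chr3:32859489-32939316, plus strand) was at 3.42 and 4.11 FPKM in ECsXAV and 4.0 and 2.51 FPKM in CPC. CPC replicate 2 was the lowest of the 4 libraries for TRIM71 and for LIN28B, and the TRIM71 groups overlapped. The difference was -0.18 (95% interval -0.73 to 0.37; limma adjusted p = 0.718), the widest interval among the 9 genes.

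ARID3B (chr15:74833547-74890472, plus strand) was at 7.07 and 8.42 FPKM in ECsXAV and 8.94 and 11.4 FPKM in CPC. Both CPC libraries were above both ECsXAV libraries. The difference was 0.35 (95% interval -0.07 to 0.77; limma adjusted p = 0.349).

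Set side by side, 3 of the 9 genes had groups that did not overlap, HMGA2 higher in ECsXAV and IGF2BP2 and ARID3B higher in CPC, beside 49.8% of all tested genes. For 8 of the 9 the 95% interval lay within a 2-fold change of FPKM + 1 in either direction, between -0.73 and 0.77 at its widest. HMGA2 was the exception. For low genes such as TRIM71, LIN28A and LIN28B the added 1 makes the same interval wider in FPKM itself. The median difference of the 9 was 0.08, beside -0.0045 for all tested genes.

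**Figure D3:**
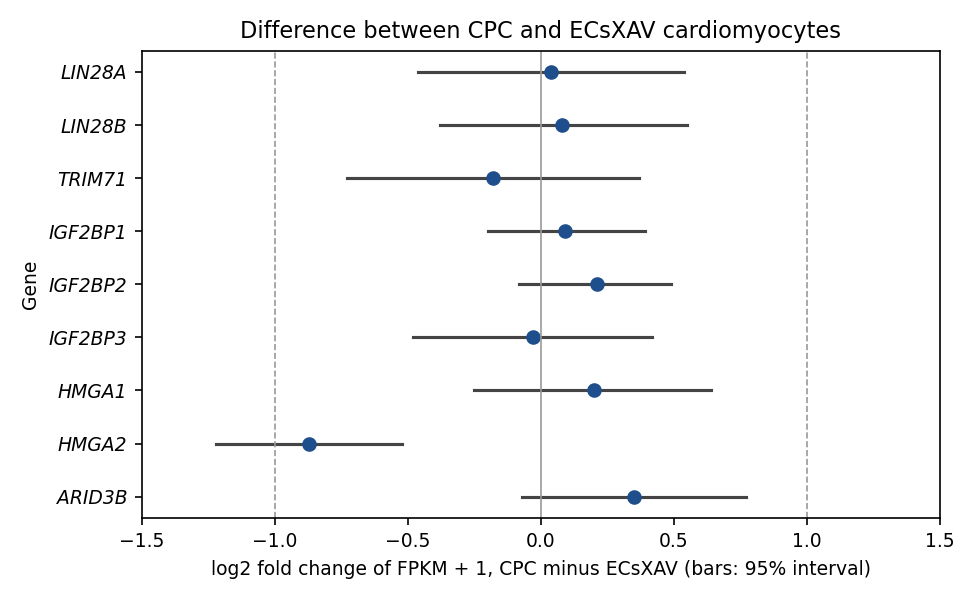
Difference in log2(FPKM + 1) between the groups, CPC minus ECsXAV, with points for the estimates, bars for the 95% interval from limma and dashed lines at a 2-fold change of FPKM + 1. The HMGA2 interval, -1.22 to -0.52, is the single one that leaves out 0.

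The order of the levels differed between the groups in the places of HMGA2 and IGF2BP2, which changed over around IGF2BP1. In ECsXAV, HMGA1 was followed by HMGA2, IGF2BP1, IGF2BP2, IGF2BP3, ARID3B, TRIM71, LIN28B and LIN28A. HMGA2 was there above both libraries of IGF2BP1, whereas IGF2BP1 and IGF2BP2 were separated by little, at 24.1 ± 0.706 and 22.5 ± 0.165 FPKM (SD, n = 2). In CPC, IGF2BP2, IGF2BP1 and HMGA2 came after HMGA1 at 26.2 ± 2.09, 25.9 ± 2.16 and 24.2 ± 3.07 FPKM (SD, n = 2), and the ranges of these neighbours overlapped. TRIM71 and LIN28B also overlapped in CPC, and the other neighbours there did not, nor did any neighbours in ECsXAV.

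The 3 tested genes with the pattern nearest to HMGA2 over the 4 libraries, by the distance between centred log2(FPKM + 1) values, were PIK3R3, ARMCX1 and ASPG. PIK3R3, a regulatory subunit of phosphoinositide 3-kinase, was at 2.50 and 2.14 FPKM in ECsXAV and 0.913 and 0.729 FPKM in CPC, at a distance of 0.074. ARMCX1 and ASPG followed at distances of 0.081 and 0.086. ASPG was at 1.81 and 1.68 FPKM in ECsXAV and 0.617 and 0.448 FPKM in CPC. For low genes such as PIK3R3 and ASPG, the added 1 makes the difference smaller than it is in FPKM. Their likeness to HMGA2 therefore holds on this scale only.

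The genes around let-7 were read next. Of 20 genes for let-7 processing and silencing, all tested, 0 passed the criterion in limma, and 1 had an unadjusted p under 0.05. That 1 was HNRNPA1, which binds a let-7 precursor, at 27.1 and 24.7 FPKM in ECsXAV and 17.9 and 12.9 FPKM in CPC. The median difference of the list was 0.03. ZCCHC11 (TUT4), the uridylyl transferase that LIN28A recruits to let-7 precursors, was at 11.9 FPKM in ECsXAV replicate 1, listed at 0 in ECsXAV replicate 2, and at 14.5 and 11.4 FPKM in CPC. A single 0 of this kind can be a failed estimate in an FPKM table, so it was not read as a loss of expression.

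Mature let-7 cannot be read from poly-A libraries. Of 12 let-7 hairpin loci, 9 were listed at 0 in every library. MIRLET7D was at 96.2 and 48.0 FPKM in ECsXAV and 83.1 and 30.2 FPKM in CPC. Such FPKM on so short a locus stood for few fragments, in a ratio of 4 to 1 to 3 to 1 once the relative depth of the libraries was taken into account. The host transcript MIR100HG was at 20.7 and 18.8 FPKM in ECsXAV and 25.5 and 19.01 FPKM in CPC.

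Among 30 other let-7 target genes, 20 held the seed match in their UTR and 28 were tested. Of these 28, 2 passed the criterion, 1 in each direction, beside 2.15% of all tested genes. At an unadjusted p under 0.05 in limma, 6 were higher in CPC and 3 higher in ECsXAV, beside 18.2% of tested genes. CCND1, the cyclin D1 gene, was at 10.04 and 11.9 FPKM in ECsXAV and 3.73 and 4.53 FPKM in CPC, a difference of -1.22 (limma adjusted p = 0.0327). PBX3, a homeodomain cofactor, was at 14.6 and 16.7 FPKM in ECsXAV and 37.9 and 34.7 FPKM in CPC, a difference of 1.17 (limma adjusted p = 0.0252). The median of the list was -0.02. CCND2, cyclin D2, was at 33.1 and 34.7 FPKM in ECsXAV and 22.2 and 23.0 FPKM in CPC, with a limma adjusted p of 0.0704.

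Of 10 transcripts known to be bound by IGF2BP proteins, 8 were tested and 0 passed the criterion in limma, with 2 at an unadjusted p under 0.05. H19, an imprinted noncoding RNA bound by IGF2BP1, was at 66.7 and 75.0 FPKM in ECsXAV and 37.5 and 40.0 FPKM in CPC. Its difference of -0.85 had a limma adjusted p of 0.0413 with a fold change under 2. ACTB, the beta-actin messenger, was at 69.9 and 96.7 FPKM in ECsXAV and 138 and 139 FPKM in CPC (limma adjusted p = 0.123).

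Relatives and partners of these proteins were read from 3 further lists. None of 12 HMG-box and HMGN chromatin genes, 14 RNA-binding partners of the IGF2BP proteins, and 4 tested ARID3 and TRIM-NHL relatives passed the criterion in limma, with 1, 1 and 0 of them at an unadjusted p under 0.05. Their median differences were -0.01, 0.03 and 0.04, and a count of 0 in lists of this size is near the share over all tested genes. ELAVL2, an RNA-binding protein of the Hu family, was the partner gene with the unadjusted p under 0.05, at 3.15 and 2.67 FPKM in ECsXAV and 7.01 and 5.61 FPKM in CPC, a difference of 0.90 (limma adjusted p = 0.0614). HMGN3, a nucleosome-binding protein, was at 112 and 104 FPKM in ECsXAV and 153 and 140 FPKM in CPC, and ARID3A, the nearest relative of ARID3B, was at 18.67 to 19.98 FPKM in the 4 libraries.

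**Figure D4:**
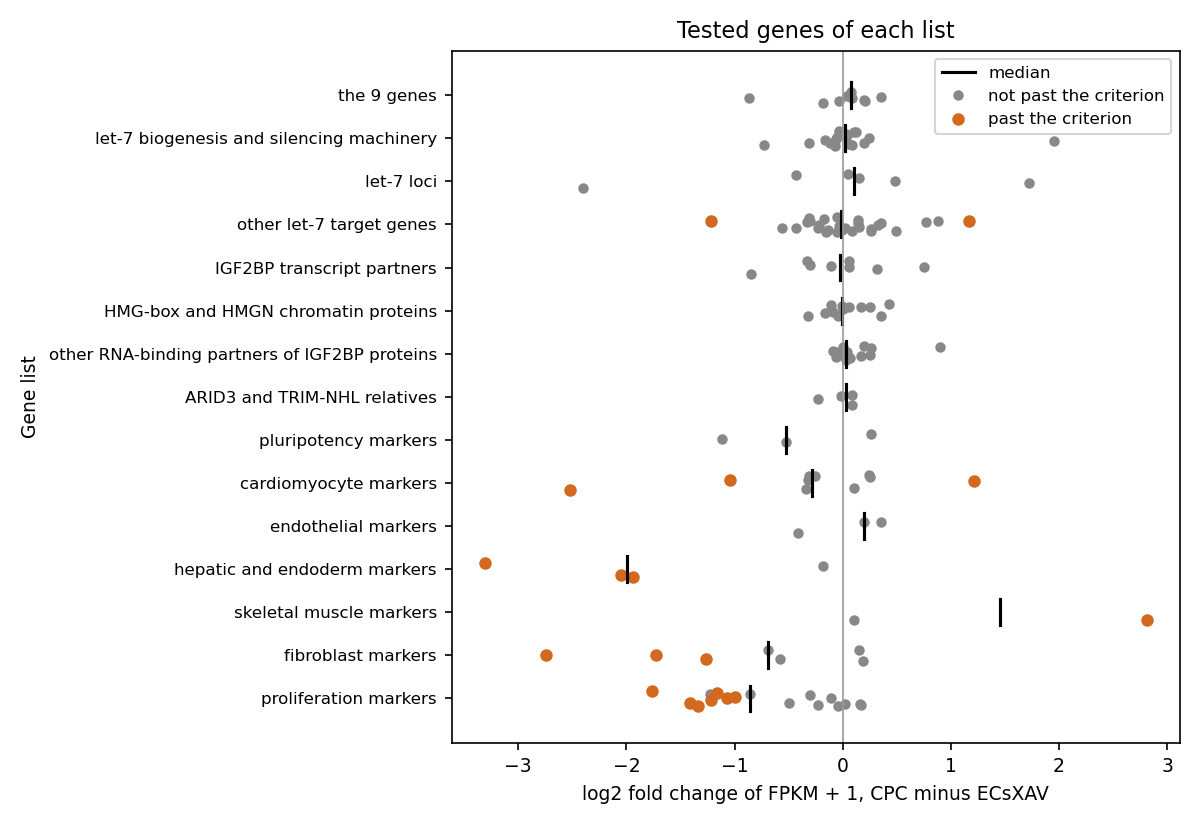
Difference in log2(FPKM + 1), CPC minus ECsXAV, for each tested gene of the 9 and of the 14 lists, with orange points for genes past the criterion, grey points for the others and a black line at the median. The 9 genes and the 7 lists around them have medians between -0.03 and 0.10. The 7 marker lists have medians from -1.99 for hepatic and endoderm markers (4 tested genes) to 1.46 for skeletal muscle markers (2 tested genes). Proliferation markers (17 tested genes) have a median of -0.86. The 2 skeletal muscle genes are STAC3 at 2.81 and ACTA1 at 0.10, so that median describes no wider program.

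Markers of the cells in these cultures were read in the same libraries. Cardiomyocyte markers were high in both groups, with TNNT2, cardiac troponin T, at 2453 and 2309 FPKM in ECsXAV and 2696 and 2988 FPKM in CPC. Of the 10 cardiomyocyte markers, MYH6 was higher in CPC, and MYH7 and MYBPC3 were higher in ECsXAV, past the criterion. Of the 10 pluripotency markers, 3 reached the mean of 1 FPKM (TDGF1, SALL4 and DNMT3B), and none passed the criterion. TDGF1, a Nodal co-receptor, was at 6.67 and 3.06 FPKM in ECsXAV and 1.68 and 1.47 FPKM in CPC, a difference of -1.12 (limma adjusted p = 0.164). DNMT3B, a de novo DNA methyltransferase, was at 5.87 and 5.80 FPKM in ECsXAV and 3.44 and 4.09 FPKM in CPC, a difference of -0.52 (limma adjusted p = 0.124). Both were thus higher in the 2 ECsXAV libraries, as HMGA2 was, while SALL4 was higher in the 2 CPC libraries, with a difference of 0.26. Groups that do not overlap were found for 49.8% of all tested genes, so a shared direction of this kind is common. NANOG was at 0 in all 4 libraries and POU5F1 at no more than 0.0432 FPKM, beside LIN28A at 1.65 to 2.39 FPKM. Of the 10 endothelial markers, 3 reached the mean of 1 FPKM and 0 passed the criterion or an unadjusted p under 0.05 in limma. KDR, the VEGF receptor, was at 9.80 and 7.06 FPKM in ECsXAV and 10.8 and 8.69 FPKM in CPC, CDH5 was at 0.649 to 1.49 FPKM and EMCN at 0.731 to 1.79 FPKM, while PECAM1 was at 0.0425 to 0.233 FPKM.

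Part of the proliferation list was lower in CPC, as HMGA2 was. Of 17 genes tested, 7 passed the criterion, all lower in CPC, beside 2.15% of all tested genes. Their summed FPKM with the other 11 of the list was 209 and 183 in ECsXAV and 129 and 136 in CPC. TOP2A, the mitotic topoisomerase, was at 14.3 and 12.6 FPKM in ECsXAV and 3.41 and 3.13 FPKM in CPC (limma adjusted p = 0.011). The other 6 were MKI67, CCNB1, CCNB2, CDK1, AURKB and PLK1, genes of mitosis and its entry. The 6 MCM genes of the replicative helicase did not pass, with differences from -0.23 for MCM4 to 0.17 for MCM7, nor did PCNA, the sliding clamp of replication, at -0.30. CCNA2, BUB1 and TYMS, at -1.23, -0.86 and -0.50, were lower in CPC without passing the criterion (limma adjusted p = 0.0523, 0.0765 and 0.13). At an unadjusted p under 0.05 in limma, 10 of the 17 were lower in CPC and 0 higher, beside 18.2% of tested genes. Of the 9 fibroblast markers, 7 were tested, and COL1A1, COL3A1 and LUM were lower in CPC past the criterion. COL1A2 and FN1 were lower in CPC, at -0.69 and -0.58, without passing it. POSTN and PDGFRA went the other way, with differences of 0.15 and 0.19 (limma adjusted p = 0.616 and 0.602). The fibroblast list summed to 272 and 316 FPKM in ECsXAV and 177 and 151 FPKM in CPC. Of the 11 hepatic and endoderm markers, AFP, APOA2 and TTR were lower in CPC past the criterion. APOA1, the highest of them, was at 20.6 and 17.9 FPKM in ECsXAV and 15.9 and 17.8 FPKM in CPC. Its difference was -0.18 (limma adjusted p = 0.53). The hepatic and endoderm list summed to 43.8 and 35.9 FPKM in ECsXAV and 16.6 and 18.8 FPKM in CPC. The skeletal muscle list summed to 25.4 and 25.6 FPKM in ECsXAV and 44.6 and 48.3 FPKM in CPC, and STAC3 carried that difference, at 1.91 and 2.19 FPKM in ECsXAV and 23.6 and 17.7 FPKM in CPC. ACTA1, the other tested gene of the list, had a difference of 0.10 (limma adjusted p = 0.855), and MYF5, MYF6 and PAX7 were at 0 in all 4 libraries. The part of these cells in the HMGA2 difference was not tested, and in cultures of mixed cells fewer cells of a type and less RNA per cell cannot be told apart. Over the 14 lists, 19 genes passed the criterion, 8 without ECsXAV replicate 1, 7 without ECsXAV replicate 2, 3 without CPC replicate 1 and 4 without CPC replicate 2.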

How the data were processed

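Poly-A RNA of unsorted day 14 cultures was sequenced from 2 CPC and 2 ECsXAV libraries. The authors deposited FPKM per gene and per transcript, made with Cufflinks 2.1.1 and UCSC annotations on hg19, and the submitters' processing notes also name TopHat 1.3.3. Absolute depth is unknown. The modal ratio of FPKM between 0.005 and 0.1 put ECsXAV replicate 2, CPC replicate 1 and CPC replicate 2 at 50.1%, 86.9% and 79.8% of the depth of ECsXAV replicate 1. Symbols with several rows were read at their highest row.

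The values were fitted as log2(FPKM + 1) by limma (version 3.58.1, R 4.3.3) with a trend of the variance on intensity. The 12398 genes whose mean over the libraries reached 1 FPKM were tested, and p-values were adjusted by Benjamini-Hochberg over them. A fold change on this scale understates that of low genes. The fit was tested on simulated data. Named genes were the 9, the list genes past the criterion or with the 3 highest mean FPKM of a list, and the 3 most like HMGA2. ZCCHC11, LINC00478, ELAVL2, MCM4, PCNA, CCNA2, BUB1, POSTN, PDGFRA, MYF5, MYF6, PAX7, POU5F1, NANOG and PECAM1 were named outside this rule after their values were seen. The members and lists were chosen with earlier results of these data known. The study calls the replicates biological, and its own test on read counts was not repeated here. Alternatives were a pseudocount of 0.1, no filter, median-of-ratios scaling, the replicate number as a block, no trend, summed transcripts and each library left out. Tables and figures used Python 3.11.15, pandas 2.3.3 and matplotlib 3.10.9.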

Additional observations from a re-analysis of the deposited data

How the results depend on the processing

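None of the 9 genes passed the criterion under any of the 10 alternatives. Of 90 values for single genes under these alternatives, 82 kept their direction and their side of the adjusted threshold. HMGA2 passed an adjusted p of 0.05 in limma with a pseudocount of 0.1 (-0.89, adjusted p = 0.0463) and with the replicate block (-0.87, adjusted p = 0.0477), and over all its alternatives the adjusted p ran from 0.0463 to 0.244. Without 1 library it ran from -0.99 to -0.74, with adjusted p from 0.103 to 0.244. Directions turned when 1 library was left out for LIN28A (-0.13 to 0.21; -0.10 without ECsXAV replicate 1 and -0.13 without CPC replicate 1), LIN28B (-0.12 to 0.29; -0.12 without CPC replicate 1), IGF2BP3 (-0.19 to 0.13; 0.13 without ECsXAV replicate 1 and without CPC replicate 2) and TRIM71 (-0.44 to 0.07; 0.07 without CPC replicate 2). Leaving out a library leaves 1 group with a single library, which is assumed to vary like the other group. The 266 genes past the criterion became 20 of 18772 with no filter (12 higher in CPC and 8 higher in ECsXAV), 176 with the replicate block and 59 to 159 without 1 library, and the 19 genes of the lists became 1, 10 and 3 to 8. The cause was not tested. The labels pair nothing by replicate number, and the differences between replicates correlated between the groups at 0.035 (Pearson) and 0.356 (Spearman) over genes. Low FPKM such as those of LIN28A are the least precise, most of all in ECsXAV replicate 2.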
